A study of Mus musculus with 2 samples.

Results

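Mir455, Mir193b, Mir365-1 and Mir365-2 are microRNA (miRNA) genes known from brown adipose tissue, the heat-producing fat found, among other places, around the adrenal gland. They were taken by gene symbol from GENCODE M21 and make up 4 of the 2202 miRNA genes counted. All 4 were found in both libraries of the series, but at mean levels from 11.6 to 1609.0 CPM (a gene's counts per 1000000 counts at miRNA genes). The series holds 1 group: whole adrenal glands of male B6CASTF1/J mice, first-generation hybrids of laboratory and wild-derived castaneus parents, at 2 months of age. Replicate 1 came from animal 3 and replicate 2 from animal 4, with 1 library of RNA under 30 nt each. There is no treatment, genotype or second tissue to set the levels against, so they are described in each animal and against the other miRNA genes of the same libraries.

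A miRNA gene is transcribed into a hairpin, from which a 5p and a 3p product of about the same length are cut. Bases 2 to 8 of a product, its seed, pair with matching sites in messenger RNAs, mostly in 3′ untranslated regions (UTRs), and lower the output of those messengers. In mouse cell culture, miR-193b and miR-365 were reported to be needed for brown adipocytes to form and to repress Runx1t1, a repressor of the fat cell programme, although mice without the cluster were later reported to keep brown fat. miR-455 was reported to be induced in brown fat by cold and to act on Runx1t1, Ndn and Hif1an. The same miRNA was reported in rodent steroid-producing cells to target Scarb1, the HDL receptor that supplies the adrenal cortex with cholesterol for steroid synthesis.

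The products are shown here because their sequences decide which reads could be counted at which gene. The sequences are RefSeq's for GRCm38.p6, 5′ to 3′, with the seed in capitals, and all 4 genes had a match. Mir193a, the close relative of Mir193b, is included for comparison.
miR-455-5p: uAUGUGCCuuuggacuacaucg
miR-455-3p: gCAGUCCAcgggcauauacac
miR-193b-5p: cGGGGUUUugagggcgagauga
miR-193b-3p: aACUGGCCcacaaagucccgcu
miR-193a-3p: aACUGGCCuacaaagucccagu
miR-365-1-5p: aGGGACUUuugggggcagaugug
miR-365-2-5p: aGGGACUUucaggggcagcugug
miR-365-3p: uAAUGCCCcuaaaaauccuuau
The products fall into groups by seed. miR-193b-3p and miR-193a-3p share the seed ACUGGCC and differ at 3 of 22 bases outside it, C9U, G20A and C21G (base of miR-193b-3p, position from the 5′ end, base of miR-193a-3p). The 5p products of the Mir365 genes share the seed GGGACUU and differ at 3 of 23 bases, U10C, G11A and A19C (base of miR-365-1-5p first). miR-365-3p is the same 22 bases from both Mir365 genes. No other mature mouse miRNA of the table had the seed of miR-455-3p, miR-193b-5p or miR-365-3p, and the seed of miR-455-5p recurred in miR-5129-3p.

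The hairpins of the Mir365 genes are shown to mark where they can be told apart, with both products in capitals.
Mir365-1: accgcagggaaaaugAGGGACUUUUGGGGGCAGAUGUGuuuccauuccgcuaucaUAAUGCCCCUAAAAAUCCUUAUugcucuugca
Mir365-2: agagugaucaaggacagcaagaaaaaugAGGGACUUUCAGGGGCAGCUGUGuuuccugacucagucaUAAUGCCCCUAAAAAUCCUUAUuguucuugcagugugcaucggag
Their longest shared run is 27 nt, ucauaaugccccuaaaaauccuuauug, and holds the whole of miR-365-3p. A read within that run aligns equally well to both genes. Reads aligned to several places, 26.2% of all reads in replicate 1 and 28.8% in replicate 2, entered no gene's count. The counts of Mir365-1 and Mir365-2 therefore leave out miR-365-3p unless a read reached past the shared run, and they cannot be read as the level of miR-365. The products of Mir455, Mir193b and Mir193a each occur in 1 annotated miRNA gene, and the longest run shared by the Mir193b and Mir193a hairpins is 10 nt.

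The genes lie at 3 places (GRCm38, the same assembly as mm10, all on the plus strand). Mir455 is at chr4:63256851-63256932, inside the span of all 4 overlapping transcripts of Col27a1 and in none of their exons, hence intronic. Col27a1 codes for a fibrillar collagen of cartilage. Mir193b at chr16:13449523-13449601 and Mir365-1 at chr16:13453840-13453926 are 4238 bp apart, and no other annotated gene of their strand covers them. They lie within introns of the non-coding gene Gm15738 of the opposite strand. Mir365-2 at chr11:79726400-79726511 follows Mir193a at chr11:79711969-79712034 after 14365 bp, and neither overlaps another annotated gene. The arrangement is thus a pair of loci, each with a Mir193 gene before a Mir365 gene.

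Depth set the precision of the values. Replicate 1 held 17000342 reads and replicate 2 held 10752051, of which 5752428 (33.8%) and 3333149 (31.0%) fell on miRNA genes in the sense direction. A single count was worth 0.174 CPM in replicate 1, against 0.300 CPM in replicate 2. Counts were not divided by hairpin length, since the products are all 21 to 23 nt long. Intervals are exact Clopper-Pearson intervals at 95% and cover counting error only, and they can be too narrow, since copies of 1 molecule made by PCR count as separate reads. At the members, the column for the opposite strand was 0 in both libraries, so the counts did not depend on strand.

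Mir455 led the 4 genes. It had 8873 counts in replicate 1 and 5585 in replicate 2, or 1542.5 CPM (interval 1510.6 to 1574.9) and 1675.6 CPM (1632.0 to 1720.1). Its mean was 1609.0 ± 94.1 CPM (SD, n = 2), rank 58 of 2202 genes and above 97.4% of them. The SD was 5.85% of the mean. The animals were thus close in Mir455, with replicate 1 slightly the lower in CPM.

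Mir193b, from the chromosome 16 locus, had 1602 counts in replicate 1 and 885 in replicate 2. This gave 278.5 CPM (interval 265 to 292) and 265.5 CPM (248 to 284), with a mean of 272 ± 9.18 CPM (SD, n = 2) and rank 133. The intervals of the animals overlapped, and the SD of 3.37% of the mean was the lowest of the 4 genes.

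The Mir365 genes were far lower. Mir365-2 had 173 counts in replicate 1 and 73 in replicate 2, or 30.1 CPM (interval 25.8 to 34.9) and 21.9 CPM (17.2 to 27.5), with a mean of 26.0 ± 5.78 CPM (SD, n = 2) and rank 254. Mir365-1 had 92 and 24 counts in the same order, or 15.99 CPM in replicate 1 (12.9 to 19.6) and 7.20 CPM in replicate 2 (4.61 to 10.7), with a mean of 11.6 ± 6.22 CPM (SD, n = 2) and rank 284. For Mir365-1 the intervals of the libraries did not overlap and the SD was 53.6% of the mean. These levels rest on reads that distinguish the loci, as described above.

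**Figure D1:**
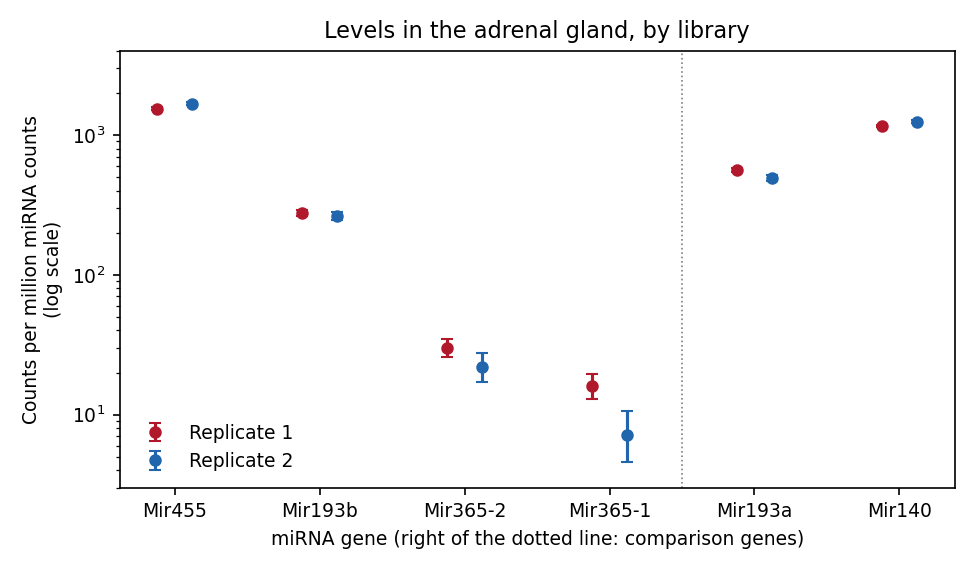
Levels of the 4 genes and of the comparison genes Mir193a and Mir140 in CPM on a log axis, replicate 1 in red and replicate 2 in blue, with exact 95% counting intervals. The order Mir455, Mir193b, Mir365-2, Mir365-1 held in both libraries, and the libraries were farthest apart for Mir365-1 (15.99 CPM in replicate 1, against 7.20 CPM in replicate 2).

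The order Mir455, Mir193b, Mir365-2, Mir365-1 was the same in both animals, and the counting intervals of neighbours in it did not overlap within a library. All 4 genes together held 0.187% of the miRNA counts in replicate 1 (interval 0.183 to 0.190) and 0.197% in replicate 2 (0.192 to 0.202), with a mean of 0.192% ± 0.00730 (SD, n = 2). Mir455 alone gave 82.6% of that sum in replicate 1 and 85.1% in replicate 2. All 4 reached 2 CPM in both libraries, as 372 of all 2202 genes did, and the median of those 372 was 86.8 CPM. Mir455 and Mir193b lay above that median, and both Mir365 genes below it.

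Genes of nearest level over the 2 libraries were found by Euclidean distance of log2(CPM + 1). This likeness covers level only. For Mir455 they were Mir324 (distance 0.07), Mir351 (0.08) and Mir146 (0.19). For Mir193b they were Mir673 (0.13), Mir125b-1 (0.21) and Mir196b (0.24). Those of Mir365-1 were Mir5113 (0.24), Mir325 (0.37) and Mir3057 (0.39), and those of Mir365-2 were Mir1941 (0.33), Mir1968 (0.33) and Mir378c (0.36).

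Ratios of counts within 1 library need no scaling between animals. Mir455 exceeded Mir193b 5.54-fold in replicate 1 (interval 5.25 to 5.85) and 6.31-fold in replicate 2 (5.88 to 6.78). Mir193b exceeded its neighbour Mir365-1 by 17.4-fold in replicate 1 (14.1 to 21.7) and 36.9-fold in replicate 2 (24.6 to 57.9), and these intervals did not overlap. On chromosome 11, Mir193a exceeded Mir365-2 by 18.7-fold in replicate 1 (16.03 to 21.9) and 22.4-fold in replicate 2 (17.7 to 28.7), with overlapping intervals. At both loci the Mir193 gene was thus counted well above the Mir365 gene next to it, and the Mir365 counts leave out miR-365-3p reads within the shared run. On the log2 scale these gaps were 4.66 ± 0.77 for chromosome 16 and 4.35 ± 0.19 for chromosome 11 (mean ± SD, n = 2).

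The chromosome 11 locus, which holds Mir365-2 and Mir193a, had the higher counts of the pair. Mir193a had 561.8 CPM in replicate 1, against 490.8 CPM in replicate 2, and exceeded Mir193b 2.02-fold (interval 1.90 to 2.14) and 1.85-fold (1.70 to 2.01) in the same order. Mir365-2 exceeded Mir365-1 by 1.88-fold in replicate 1 (1.45 to 2.45) and 3.04-fold in replicate 2 (1.90 to 5.05). Both genes of the chromosome 11 locus were therefore counted above their counterparts in both animals, and no interval reached 1. The Mir365 ratio rests on reads that distinguish the loci, so it does not compare their output of miR-365-3p. Summed over each locus, Mir193a and Mir365-2 stood at 2.01 times Mir193b and Mir365-1 in replicate 1 and at 1.88 times in replicate 2. Most of each sum came from the Mir193 gene. The genes that share the miR-193-3p seed, Mir193a and Mir193b, summed to 840 CPM in replicate 1, against 756 CPM in replicate 2.

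**Figure D2:**
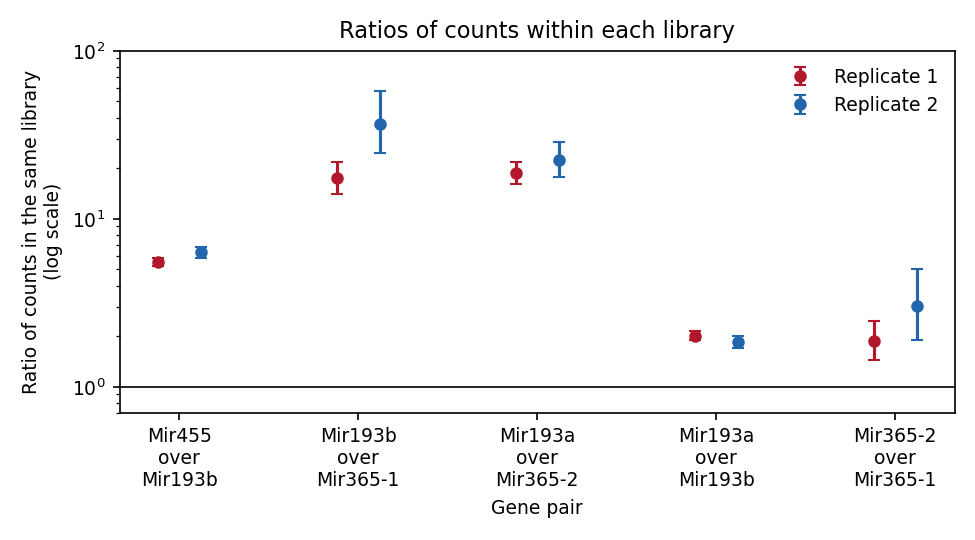
Ratios of counts within each library on a log axis, replicate 1 in red and replicate 2 in blue, with exact 95% counting intervals and a line at a ratio of 1. The ratio of Mir193b over Mir365-1 was 17.4 in replicate 1 and 36.9 in replicate 2, while Mir193a over Mir193b was 2.02 in replicate 1 and 1.85 in replicate 2.

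Between the animals, the Mir365 genes were higher in replicate 1, while the difference in Mir455 was small and turned with the scaling. Each log2 ratio sets replicate 1 over replicate 2, scaled by TMM (the trimmed mean of M-values, which centres the bulk of genes on no difference) and with 0.5 counts added, and a gene was called where the 95% counting interval left out a ratio of 1. Mir365-1 had a log2 ratio of 1.33 (interval 0.69 to 2.06), Mir365-2 one of 0.65 (0.25 to 1.07), Mir193b one of 0.27 (0.15 to 0.39) and Mir455 one of 0.08 (0.03 to 0.13). All 4 were called higher in replicate 1, where 31.9% of the 389 genes with 10 or more counts in mean were called higher, 29.8% lower and 61.7% in either direction. The calls compare these libraries and have no replicate check, since each side is 1 animal. Only Mir365-1 of the 4 was 2-fold or more apart, as 14.4% of the 389 genes were.

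Relative to total counts, TMM scaling raised every log2 ratio by 0.20, and the median of all 389 genes was 0.01 after it. By total counts 86 of the 389 genes (22.1%) were called higher in replicate 1 and 172 (44.2%) lower. On that scale Mir455 was lower in replicate 1, at -0.12 (interval -0.17 to -0.07), and Mir193b was not called, at 0.07 (-0.05 to 0.19). With all reads in the file as the scaling, Mir455 was not called, at 0.01 (-0.04 to 0.06). Mir365-1 and Mir365-2 were called higher in replicate 1 under every scaling run, with log2 ratios of 1.13 and 0.45 by total counts. The median of the 4 genes was 0.46 after TMM.

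**Figure D3:**
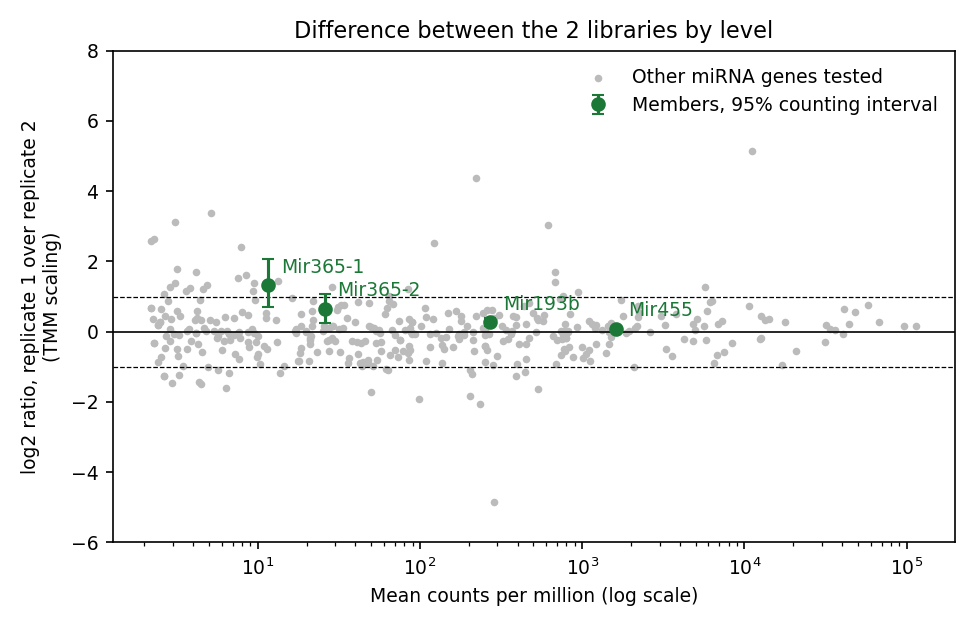
Log2 ratio of replicate 1 over replicate 2 after TMM scaling against mean CPM on a log axis, with the 389 genes tested as grey points and the 4 members in green with 95% counting intervals. Dashed lines mark 2-fold, which Mir365-1 at 1.33 passed, and Mir455 lay at 0.08.

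Markers of other cell types moved between the libraries by unequal amounts. The 3 red blood cell genes Mir451a, Mir144 and Mir486 summed to 22813 CPM in replicate 1, against 901 CPM in replicate 2. Of these, 3 of 3 were called higher in replicate 1, beside 31.9% of all 389 genes tested. With Mir451a left out of the denominator, Mir455 averaged 1626.7 CPM and Mir193b 275.2 CPM, each less than 1 SD from the value with it. Of 9 heart and skeletal muscle genes 3 were detected and 2 were at 0 in both libraries, and the 9 summed to 719 CPM in replicate 1, against 454 CPM in replicate 2. Mir1a-1, Mir1a-2, Mir133a-1 and Mir133a-2 are numbered copies, so their counts leave out any reads aligned to several places. The genes at 0, Mir1a-1 and Mir133a-2, are among them, so these counts do not show that their products were absent. The muscle genes did not move together. Mir499, hosted by the myosin gene Myh7b, had 423.0 CPM in replicate 1, against 23.1 CPM in replicate 2, and Mir208b of Myh7 and Mir208a of Myh6 were also called higher in replicate 1 (log2 ratios 2.51 and 3.37). Mir206, known from skeletal muscle, was called lower, at 81.7 CPM in replicate 1, against 388.8 CPM in replicate 2. These 4 tested muscle genes were each 2-fold or more apart, as 14.4% of all 389 genes tested were. Mir122 of liver had 690.1 CPM in replicate 1, against 1331.5 CPM in replicate 2. The 5 kidney genes summed to 97.4 CPM in replicate 1, against 141 CPM in replicate 2. Of the 4 kidney genes tested, 2 were called lower in replicate 1 and 2 neither, beside 29.8% of all 389 genes called lower. The part of these tissues, or of fat left on the gland, in the levels of the 4 genes was not tested, and fewer cells of a type and less RNA per cell cannot be told apart in whole tissue. Of the gland's own cell types, the neuroendocrine genes Mir375, Mir7-1, Mir7-2 and Mir7b summed to 72802 CPM in replicate 1, against 51447 CPM in replicate 2. Mir375 made up most of that sum, with 68780 CPM in replicate 1, against 46236 CPM in replicate 2, and was called higher in replicate 1, as Mir7-2 was. Mir7b was called lower, at 3665.6 CPM in replicate 1, against 4819.5 CPM in replicate 2, and Mir7-1 was not called. Mir7-1 and Mir7-2 are numbered copies, so their counts, and the neuroendocrine sum, leave out any reads aligned to both. Mir126a of endothelium had 69154 CPM in replicate 1, against 65133 CPM in replicate 2 (log2 ratio 0.29). Of the smooth muscle genes, Mir143 had 31774 and 31884 CPM (0.19) in the same order. Mir145a had 984.5 CPM in replicate 1, against 1434.1 CPM in replicate 2 (-0.34). Messenger RNAs of steroid synthesis were not measured.

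Among 19 genes reported to favour brown or beige fat, the 4 named here took places 4 (Mir455), 8 (Mir193b), 14 (Mir365-2) and 17 (Mir365-1) by mean CPM. All 19 were detected. The list was led by Mir378a, hosted by Ppargc1b, whose protein promotes mitochondrial biogenesis, at 53712 CPM in replicate 1, against 41751 CPM in replicate 2. Mir26b, in an intron of the phosphatase gene Ctdsp1, had 15508 CPM in replicate 1, against 26258 CPM in replicate 2, and Mir328 had 2145.4 and 2200.6 CPM in the same order. Mir455, Mir193b and the Mir365 genes made up 2.48% of the list's sum in replicate 1 and 2.63% in replicate 2. Genes with copies, such as Mir26a-1 and the Mir365 genes, lack the reads that aligned to more than 1 place. The places in the list, its sum and the share of the 4 genes in it are therefore uncertain.

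Of these 19 genes, 9 were called higher in replicate 1, 3 lower and 7 neither, with a median log2 ratio of 0.08 beside 0.01 over all genes tested. Of all 389 genes, 31.9% were called higher and 29.8% lower. By total counts 5 of the 19 were higher and 8 lower, where 22.1% of all genes tested were higher and 44.2% lower, so the list moved with the scaling as all genes did. Among 12 genes reported to restrain brown or beige fat, 9 were detected. Mir133a-1, Mir133a-2 and Mir133b, which in mice repress the brown fat regulator Prdm16, had 1 count or none in each library. Mir133a-1 and Mir133a-2 are numbered copies, so their counts leave out any reads aligned to both. The level of miR-133a was therefore not measured. By counts, Mir27b led the restraining list with 2486.8 CPM in replicate 1, against 4632.0 CPM in replicate 2. It stood before Mir93 with 1821.5 and 2057.2 CPM and Mir34a with 1160.9 and 1152.1 CPM, in the same order. Mir125b-1 and Mir125b-2 are numbered copies as well, so the order within this list is uncertain. Of its 9 tested genes 2 were called higher in replicate 1 and 5 lower, with a median log2 ratio of -0.24, beside the same 31.9% higher and 29.8% lower over all genes. By total counts 0 were higher and 7 lower, beside 22.1% and 44.2% of all genes.

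**Figure D4:**
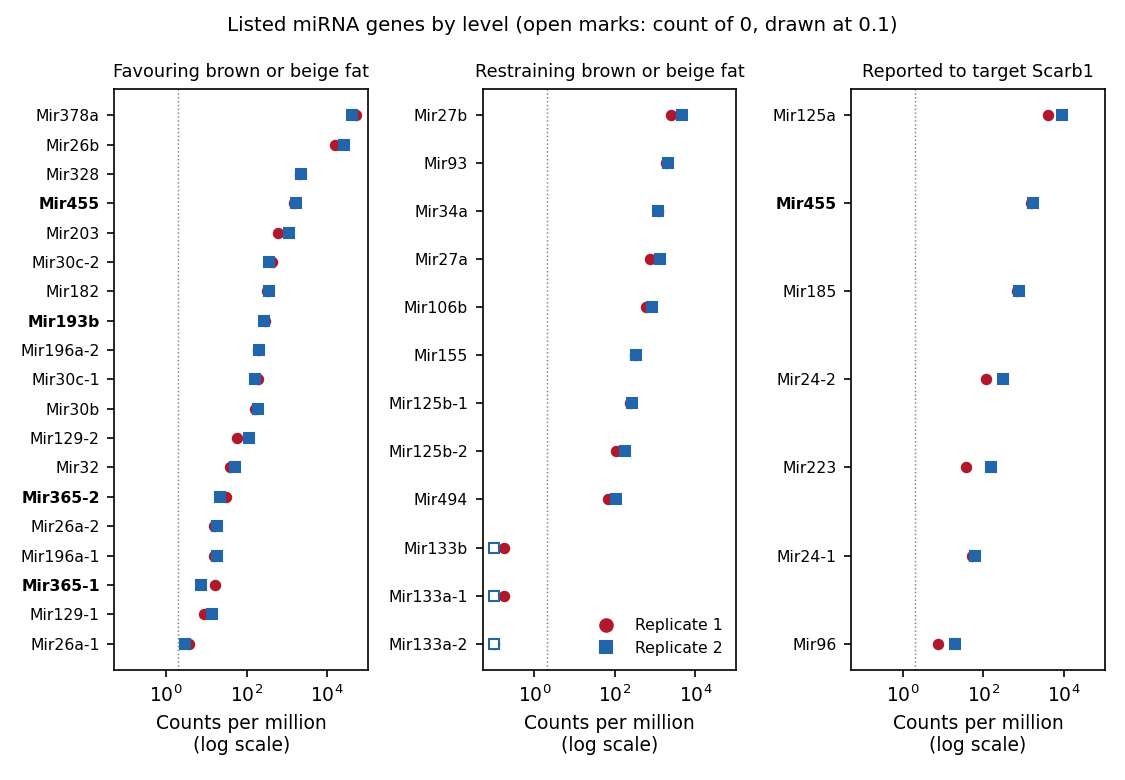
Levels of the listed genes in CPM on a log axis, replicate 1 as red circles and replicate 2 as blue squares, with the members in bold and a dotted line at the detection limit of 2 CPM. By counts, Mir455 stood at place 4 of the 19 genes reported to favour brown or beige fat, while the Mir133 genes lay below the limit. By counts, Mir455 lay below Mir125a alone among the 7 genes reported to target Scarb1. Counts of genes with copies, among them the Mir24, Mir26a, Mir125b and Mir133a genes, leave out reads aligned to several places. Places in the lists are therefore uncertain.

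All 7 genes reported to target Scarb1 were detected, and Mir455 ranked below Mir125a and above the other 5 by mean CPM. The place of the Mir24 genes in this order is uncertain, since their counts leave out reads aligned to several places. Mir125a, reported beside Mir455 as a regulator of Scarb1 in steroid-producing cells, had 4119.3 CPM in replicate 1, against 8839.1 CPM in replicate 2, with a log2 ratio of -0.90 (interval -0.93 to -0.88). Mir455 stood at 0.375 times Mir125a in replicate 1 (0.365 to 0.384) and at 0.190 times in replicate 2 (0.184 to 0.195). Mir125a was thus above Mir455 in both animals, by an amount that differed between them beyond counting error.

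The other members of the Scarb1 list had lower counts than Mir455 in both animals. Mir185 had 694.5 CPM in replicate 1, against 789.3 CPM in replicate 2 (log2 ratio 0.01), and Mir223, best known from neutrophils and their precursors, had 36.7 and 159.3 CPM (-1.92) in the same order. Mir96 had 7.65 CPM in replicate 1, against 19.8 CPM in replicate 2 (-1.17). Mir24-2 had 114.4 CPM in replicate 1, against 303.0 CPM in replicate 2 (-1.21), and Mir24-1 had 52.2 and 61.5 CPM (-0.04) in the same order. The Mir24 genes encode the same 3p product, so their counts leave out reads aligned to several places. Whether miR-24-3p itself lay below the products of Mir455 was therefore not measured. Of the 7 genes, 1 was called higher in replicate 1, which was Mir455, and 4 were called lower, with a median log2 ratio of -0.90, beside 31.9% higher and 29.8% lower over all 389 genes. By total counts 0 were higher and 6 lower, beside 22.1% and 44.2% of all genes.

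The 3′ UTRs of the reported targets were searched for the 7 bases that pair with each seed, on the transcript's strand, in the longest annotated 3′ UTR of each gene. Targets were not measured in these small RNA libraries, so the matches are a description of sequence. They are shown with the match in capitals.
Scarb1, chr5:125277703-125277725, minus strand, for miR-455-5p: tccgcacgcacGGCACATggatg
Runx1t1, chr4:13893542-13893564, plus strand, for miR-455-3p: ttttccttagtTGGACTGtaatg
Ndn, chr7:62349816-62349838, plus strand, for miR-455-3p: tccatgtggaaTGGACTGatttg
Runx1t1, chr4:13890055-13890077, plus strand, for miR-193b-3p: tagaacacagaGGCCAGTaacgg
The 3′ UTR of Scarb1 is 779 nt long and held 1 match GGCACAT to the 5p product of Mir455, at base 152, and 0 matches TGGACTG to its 3p product. GGCACAT occurs in 4.33% of the first 779 bases of the 11832 3′ UTRs of at least that length. For Mir125a, the same UTR held 2 matches CTCAGGG to the 5p product, a motif found in 8.59% of these UTRs. It also held 1 match each to miR-24-3p, miR-96-5p and miR-185-3p. Their motifs were found in 10.7%, 4.97% and 10.1% of these UTRs, in that order. For Mir185 only the 3p product was searched. Both products of Mir223 had 0 matches. The 3′ UTR of Runx1t1, 3762 nt long, held 1 match to miR-455-3p and 1 GGCCAGT match to miR-193b-3p. This UTR also held 1 AAGTCCC match to the seed shared by the 5p products of Mir365-1 and Mir365-2. It held 0 GGGCATT matches to miR-365-3p. In windows of that length, TGGACTG occurs in 25.2% of 1680 UTRs, GGCCAGT in 23.9%, AAGTCCC in 20.7% and GGGCATT in 20.5%, so matches in a UTR this long are common. Ndn, an inhibitor of fat cell formation, held 2 TGGACTG matches in 877 nt, and the first is shown. That motif was found in 8.25% of UTR windows of that length. Hif1an held 2 TGGACTG matches in 5116 nt, and 30.3% of UTR windows of that length held the motif. The 5p product of Mir455 had 0 matches in Runx1t1, Ndn and Hif1an, and that of Mir193b had 0 in Runx1t1. Cdon and Igfbp5 were also searched for Mir193b. Cdon held 1 AAACCCC match to miR-193b-5p in 3432 nt and 0 matches to miR-193b-3p. Igfbp5 held 1 GGCCAGT match to miR-193b-3p in 4445 nt and 0 matches to miR-193b-5p. AAACCCC occurs in 16.6% of UTR windows of Cdon's length, and GGCCAGT in 27.6% of windows of Igfbp5's length. The counts are per hairpin, so which arm of Mir455, whose products match different UTRs here, was the more abundant was not measured.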

How the data were processed

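The deposited files hold counts of reads per miRNA gene for mm10 and GENCODE M21, per the files that describe each library. Reads came from RNA under 30 nt, per the labels. For the aligner and the trimming, the sources used here give nothing. Each file has 3 count columns, without regard to strand, on the gene's strand (used here) and on the opposite strand. Its 4 leading rows name no gene, held 66.2% of reads in replicate 1 and 69.0% in replicate 2, and were kept out of library sizes.

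CPM use the total at miRNA genes. A gene was detected at 2 CPM in both libraries. Libraries were compared over all genes with 10 or more counts in mean by the exact binomial interval of their ratio. With 1 group, no test between groups was possible, and edgeR gave only TMM factors. Named genes were the members, Mir193a, the 3 most abundant genes of each list, all genes of the Scarb1 list and the 3 genes nearest in level to each member. Genes named outside this rule, among them the Mir133 genes, Mir26a-1 and further marker genes of other cell types, were chosen after their values were seen. The members, lists, 3′ UTR targets and the ratios with Mir140 and Mir125a were chosen with earlier results of these data known. Alternatives changed the strand column, denominator, scaling (DESeq2 size factors among others), added counts, filters and thresholds, or left out 1 library. The intervals were tested on simulated data that held counting error only. The simulation had no PCR copies and no differences between animals, so it does not bear on those. Tools were edgeR 4.0.16 and DESeq2 1.42.0 in R 4.3.3, and pandas 2.3.3, SciPy 1.17.1, NumPy 2.4.6 and matplotlib 3.10.9 in Python 3.11.15.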

Additional observations from a re-analysis of the deposited data

Results flagged for a closer look

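Among the genes named or listed here, opposite-strand counts above the limit of 3 that a count of 0 allows appeared at 6: Mir203, Mir24-1, Mir486, Mir1a-2, Mir122 and Mir126a. Mir203 had 124 such counts in replicate 1 and 190 in replicate 2, beside 3514 and 3831 on its own strand in the same order. Mir24-1 had 39 in replicate 1 and 29 in replicate 2, and another miRNA gene, Mir3074-1, is annotated on the opposite strand there. Mir486, a red blood cell gene, had 28 in replicate 1 and 8 in replicate 2, and Mir3107 is annotated on the opposite strand there. Mir1a-2 of muscle had 5 in replicate 1 and 9 in replicate 2, more than its own 1 sense count in replicate 2. Mir1b is annotated on the opposite strand there. Mir122 of liver had 5 in replicate 1. Mir126a of endothelium had 8 in replicate 2, and Mir126b is annotated on the opposite strand there. Mir455, Mir193b, Mir365-1 and Mir365-2 had 0 in both libraries.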

How the results depend on the processing

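Levels depend on the denominator. Without regard to strand, Mir455 averaged 1911.0 CPM, Mir193b 323.5 CPM and all 4 genes 0.228%. With all reads in the file as the denominator, Mir455, Mir193b, Mir365-1 and Mir365-2 averaged 520.7, 88.3, 3.82 and 8.48 CPM, with a summed share of 0.0621%. Without the 20 most abundant genes in the denominator they averaged 6779.9, 1145.7, 48.8 and 109, with a share of 0.808%. The log2 ratio of Mir455 was -0.12 by total counts and 0.01 by all reads, and that of Mir193b 0.07 by total counts, as the scaling shifts all genes alike. At a limit of 100 CPM, 2 of the 4 genes were detected. Genes 2-fold or more apart numbered 253 with no filter on counts and 25 at 100 or more counts in mean, where fewer genes are tested. By total counts the genes called higher and lower in replicate 1 were 5 and 8 for the list favouring brown or beige fat, and 0 and 2 for Mir455 and Mir140. Genes called higher were 0 for the list restraining it and 0 for the Scarb1 list. Without genes that carry a copy number, the first list had 9 detected and 4 higher. In the runs leaving out 1 library, Mir455 ranged from 1542.5 to 1675.6 CPM and Mir365-1 from 7.20 to 15.99 CPM. The low counts of Mir365-1 limit its precision, and how many miR-365-3p reads its counts leave out was not measured.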

Other observations

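Mir455 and Mir140 are both known from cartilage, where Mir140 lies within Wwp2 and Mir455 within Col27a1. Mir140 had 1158.3 CPM in replicate 1, against 1247.5 CPM in replicate 2, rank 68 of 2202 genes. Mir455 exceeded it 1.33-fold in replicate 1 (interval 1.29 to 1.38) and 1.34-fold in replicate 2 (1.29 to 1.40), so their ratio differed between the animals by less than counting error. By TMM the log2 ratio between the animals was 0.09 for Mir140 and 0.08 for Mir455, and by total counts it was -0.11 and -0.12. Mir455 over Mir193a, by contrast, was 2.75 in replicate 1 (2.64 to 2.86) and 3.41 in replicate 2 (3.23 to 3.61). These ratios were picked out after their values were seen and rest on 2 animals.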
